A study of Mus musculus with 21 samples.

Results

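The first step of differentiation in this series is the one from undifferentiated mouse embryonic stem cells (day 0) to embryoid bodies of day 2 that received no ascorbic acid (day 2 control). Embryoid bodies are clumps of stem cells grown free of a dish surface, within which differentiation begins. The 6 arrays of these groups, 3 each, were taken by their labels out of 21 arrays. All cells were of the line CGR8, with no transgene named. Day 2 control aggregates had grown from 500 cells per 25 µL hanging drop in a medium labelled 20% IMDM, and were collected before the move to a shaker. Day 0 cells were undifferentiated, in a medium labelled 10% GMEM. Medium, aggregation and the days of culture differ together, so their effects cannot be told apart. The presence of the cytokine LIF in these media was not stated in the sources used here. Total RNA (100 ng) was hybridised to Affymetrix mouse arrays, and values are log2 signals, on which 1 unit is a factor of 2. The arrays are a selected set: by the labels, only experiments with a later gain in beating under ascorbic acid were hybridised.

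Mouse stem cells of this kind keep a naive ground state through a network of transcription factors that LIF sustains by way of its receptor, JAK kinases and STAT3. When that network is withdrawn, cells pass to a formative or primed state like that of the early postimplantation epiblast. There the general pluripotency factors Pou5f1 and Sox2 remain, Fgf5 and Otx2 come on, and new DNA methylation is laid down by Dnmt3a and Dnmt3b. The germ layers form only after this step.

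The array labelled day 0 replicate 1 stood apart from its group. Over 18194 genes it had Pearson's r of 0.969 and 0.966 with day 0 replicates 2 and 3, which had r of 0.989 with each other, and r of 0.982, 0.979 and 0.976 with the day 2 control arrays. Each array was also placed on the line between the groups, drawn from the other arrays, with 0 at day 0 and 1 at day 2. The day 2 control arrays lay at 0.94, 0.89 and 0.73, and the day 0 arrays at 0.73, -0.14 and -0.07. Each array had its own line, so these positions are not on a common scale and do not rank replicate 1 against the day 2 arrays. On a shared axis, the direction of largest spread among these arrays (57.3% of the variance), day 0 replicate 1 lay at 11.19. Day 0 replicates 2 and 3 lay at -42.30 and -44.46, and the day 2 control arrays at 26.43, 29.47 and 19.68. Replicate 1 thus lay between the groups on this axis, nearer to day 2. The count of each gene list is therefore given with and without this array. RNA quality also differed somewhat: the 3' minus 5' signal of Actb, which grows as RNA degrades, was 1.22, 1.40 and 0.94 at day 2 against 0.79, 0.82 and 0.87 at day 0, without overlap. For Gapdh the same measure was 0.36, 0.63 and 0.17 at day 2 against 0.18, 0.06 and 0.13 at day 0, with overlap. The part of RNA quality in the results was not tested. In RNA pooled from many cells, fewer cells of a type and less RNA per cell cannot be told apart.

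Day 2 aggregates had lower levels of most naive pluripotency transcripts and higher levels of most primed epiblast transcripts, while Pou5f1 stayed high. Of 18194 genes, 2144 (11.8%) were called at an adjusted p under 0.05 (limma). By day 2, 873 genes (4.80%) rose and 1271 (6.99%) fell. Without day 0 replicate 1, 1407 (7.73%) rose and 2306 (12.7%) fell, and 1993 of the 2144 genes were called again. Leaving out day 0 replicate 2 gave 1122 calls, leaving out its replicate 3 gave 1420, and leaving out day 2 control replicate 1 gave 1367. A fit of these 6 arrays alone, with fewer degrees of freedom, called 198 genes. The p-values measure the spread between arrays that the labels call biological replicates, and 3 arrays a group limit the precision.

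The largest rise was that of Pim2, a serine/threonine kinase. Its log2 signal was 11.18, 11.31 and 10.94 at day 2 against 9.26, 7.36 and 6.99 at day 0. Every day 2 array lay above every day 0 array, with replicate 1 the highest of day 0 (difference 3.27 ± 0.35 SE, 9.67-fold, adjusted p = 1.43e-05). Mme (neprilysin, a peptidase of the cell surface) fell to background. It had 3.78, 3.14 and 5.11 at day 2 against 8.37, 8.41 and 9.16 at day 0 (adjusted p = 1.33e-06). All 3 day 0 arrays were high, replicate 1 included. Levels under 5 are not shown to be above background, so with such values set to 5 the fall is a bound, at least 12.2-fold. A second Mme probe set differed by -0.81.

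The 20 largest rises and the 20 largest falls were picked among called genes without overlap between the groups, so that separation is a condition of the choice. Genes outside the pluripotency lists were also among the 20 largest rises. Lpar4, a receptor for lysophosphatidic acid, had 9.20, 8.47 and 8.93 at day 2 against 8.40, 4.52 and 4.84 at day 0, so that replicate 1 lay just under the day 2 arrays. The carbonic anhydrase gene Car4 had 8.06, 8.44 and 8.17 at day 2 against 6.42, 5.17 and 5.13 at day 0, with a clear gap between the groups. Irs4, an insulin receptor substrate, rose by 2.16 ± 0.42, and Has2, which makes hyaluronan, by 1.99 ± 0.38. Amot, a scaffold of the Hippo pathway, rose by 2.86 ± 0.45, while another of its probe sets differed by 0.12. The 20 largest falls likewise held genes of other roles. Ahnak, a giant scaffold protein, had 6.23, 6.42 and 6.63 at day 2 against 9.44, 9.55 and 10.10 at day 0 (difference -3.27 ± 0.24, 9.65-fold lower, adjusted p = 1.92e-07), and day 0 replicate 1 sat with its group. Anxa2 (annexin A2) fell by 2.84 ± 0.41 and Lgals3 (galectin-3) by 3.48 ± 0.55. Probe sets also disagreed for Ahnak, Anxa2 and Dpys, a pyrimidine-breakdown enzyme, where the most divergent ones differed by 0.05, -0.15 and 0.25. Of 185 called genes on the lists, 107 had another probe set with a mean of at least 5. In 35 of these one differed by 1 log2 unit or more from the probe set used, and in 22 one had the opposite sign, so a fold belongs to its probe set.

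**Figure D1:**
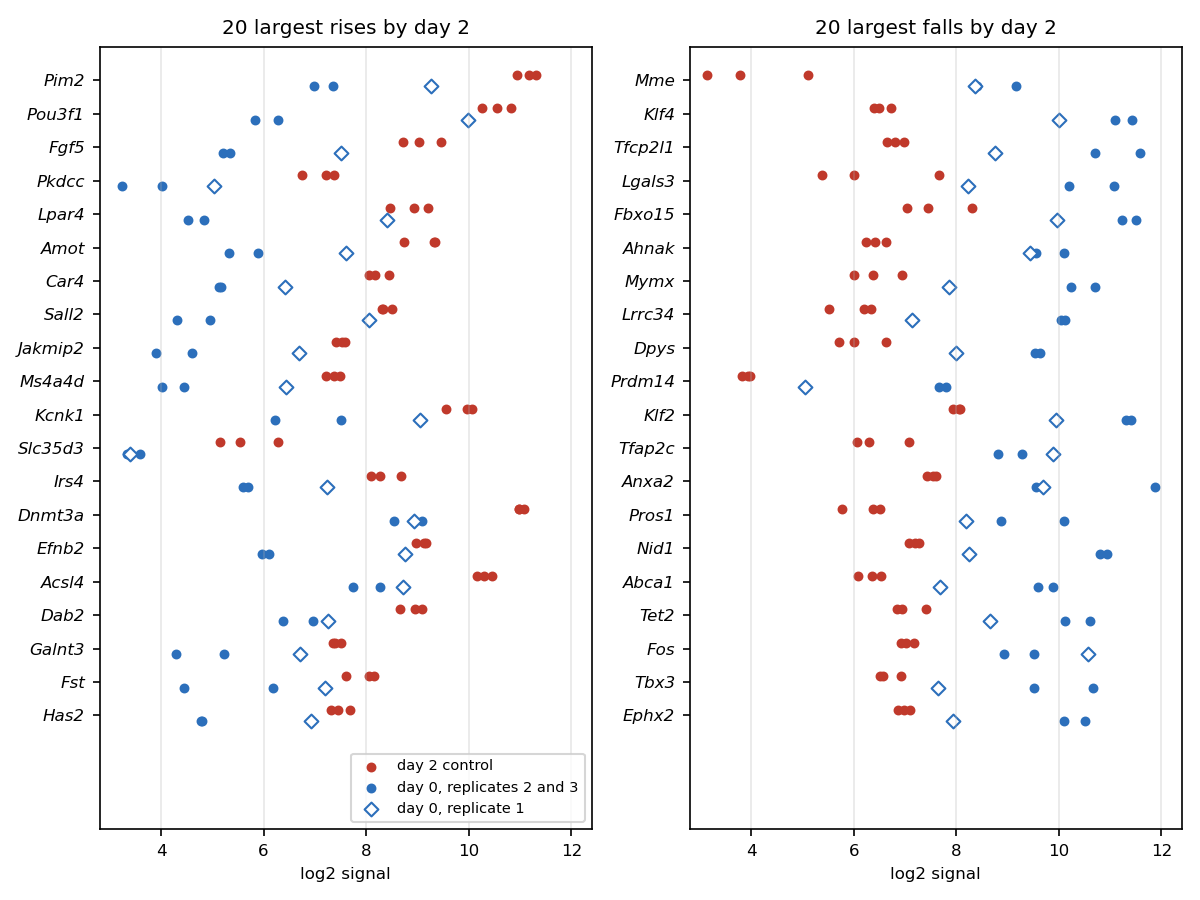
Log2 signal (x axis) of the 20 called genes with the largest rise (left) and the largest fall (right) whose groups do not overlap, with day 2 control arrays in red above day 0 arrays in blue, and day 0 replicate 1 as an open diamond. Replicate 1 lies between the groups for most genes, close to day 2 for Lpar4, Sall2 and Efnb2 and within or beyond its own group for Mme, Ahnak, Dnmt3a and Fos. Signals under 5, as for Mme and Prdm14 at day 2, are not shown to be above background.

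The place of day 0 replicate 1 differed from gene to gene. Without it, 291 genes rose by at least 1 log2 unit and 675 fell by at least 1. Replicate 1 had covered at least 0.5 of the distance to day 2 in 71.8% of the risers and 77% of the fallers, with a median of 0.74 in both. For 14 naive transcription factors the median was 0.68 and for 13 primed epiblast genes 0.74. In 7 genes of the amino acid and ATF4 response it was 1.46, beyond the day 2 mean. In 5 immediate early genes it was 0.02 and in 7 basement membrane genes 0.41, nearer to day 0.

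**Figure D2:**
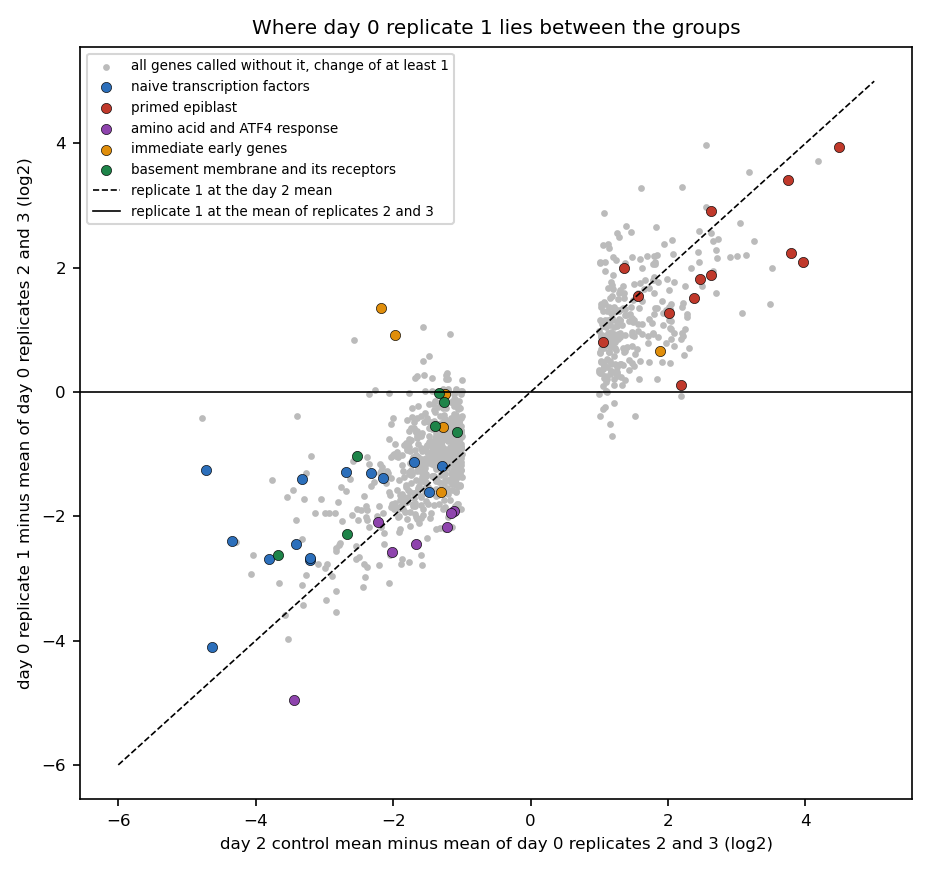
For genes called without day 0 replicate 1 with a change of at least 1, the x axis is the day 2 control mean minus the mean of day 0 replicates 2 and 3, and the y axis is day 0 replicate 1 minus that same mean, both in log2 units. Points near the dashed line are genes where replicate 1 had the day 2 level; ATF4 response genes lie past that line (median 1.46 of the distance) and immediate early genes near or across the solid line (median 0.02).

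Naive transcription factors fell as a list: 13 of 16 fell and 0 rose, with a median difference of -2.28 against 0.03 over all genes. Without day 0 replicate 1, 15 fell. Klf4, a factor of the LIF and STAT3 branch, had 6.49, 6.40 and 6.72 at day 2 against 10.00, 11.09 and 11.43 at day 0 (difference -4.30 ± 0.31, 19.7-fold lower, adjusted p = 1.92e-07). The fit of 6 arrays alone called 4 of the 16 list genes, Klf4 among them (adjusted p = 0.00332). Klf2, a related factor, had 8.08, 8.05 and 7.94 at day 2 against 9.95, 11.30 and 11.40 at day 0 (difference -2.86 ± 0.28, adjusted p = 5e-06). For both genes replicate 1 was the lowest day 0 array and still far above day 2. Klf5, the third of these factors, had 8.42, 8.19 and 8.88 at day 2 against 9.04, 11.43 and 11.98 at day 0, so replicate 1 lay next to the day 2 arrays.

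Tfcp2l1, another LIF-responsive factor, had 6.64, 6.81 and 6.97 at day 2 against 8.75, 10.71 and 11.59 at day 0 (11.7-fold lower). One of its other probe sets differed by -0.05. Prdm14, which restrains FGF signalling and DNA methylation, had 3.94, 3.98 and 3.83 at day 2, at background level, against 5.04, 7.79 and 7.66 at day 0 (at least 3.56-fold lower). Tcl1, a co-activator of AKT, was split within day 0: it had 7.09, 6.68 and 8.11 at day 2 against 7.83, 12.00 and 11.87 at day 0, with overlap (difference -3.27 ± 0.67, adjusted p = 0.00331). Esrrb, an orphan nuclear receptor of the naive network, had 7.18, 7.22 and 7.10 at day 2 against 7.74, 8.15 and 9.57 at day 0 (2.50-fold lower, difference -1.32). Another Esrrb probe set of about the same mean level differed by -3.08.

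Nanog and Zfp42 (Rex1) fell and remained well above background. Nanog had 9.92, 9.87 and 8.99 at day 2 against 10.61, 11.90 and 11.94 at day 0 (difference -1.89 ± 0.35, adjusted p = 0.00164). Zfp42 had 9.55, 9.16 and 9.80 at day 2 against 10.91, 12.08 and 12.30 at day 0 (difference -2.26 ± 0.30, adjusted p = 7.88e-05). The groups did not overlap for either gene. The 3 members with no call were Zfp281 (0.24), a factor known to act in the exit from the naive state, Sp1 (-0.44) and Gbx2 (-0.94), of which Sp1 and Gbx2 were called without replicate 1.

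The general pluripotency genes moved less: 4 of 20 fell and 0 rose, with a median of -0.23, and the counts were the same without day 0 replicate 1. Pou5f1 (Oct4) had 11.49, 11.44 and 11.60 at day 2 against 11.26, 11.88 and 12.13 at day 0, with overlap (difference -0.25 ± 0.25, adjusted p = 0.608). Sox2, its partner, had 11.37, 11.13 and 11.18 at day 2 against 12.20, 12.37 and 12.36 at day 0. All day 2 arrays lay below day 0, and the difference of -1.08 ± 0.43 missed the threshold with the spread of all 21 arrays (adjusted p = 0.12) but not with that of these 6 alone (adjusted p = 0.0134). Both genes were bright in every array of both groups. Fbxo15, an F-box gene driven by Oct4 and Sox2, fell by 3.30 ± 0.39 (9.85-fold lower). Zfp296 (-1.13), Gdf3 (-0.96) and Sall4 (-0.72) also fell, while Lin28a, Utf1 and Dppa5a had differences of -0.16, 0.19 and -0.15.

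Genes of the LIF pathway fell at several levels: 8 of 14 fell and 0 rose, with a median of -0.86 and the same counts without day 0 replicate 1. The receptor chains Lifr and Il6st (gp130) fell by 1.22 ± 0.32 and 1.33 ± 0.28. Lifr had 8.14, 8.04 and 8.35 at day 2 against 8.14, 9.96 and 10.10 at day 0, so its replicate 1 lay among the day 2 arrays. The kinase Jak1 fell by 0.79 ± 0.16. Stat3, the transcription factor, had 8.16, 8.05 and 8.40 at day 2 against 9.05, 8.97 and 9.37 at day 0 (difference -0.93 ± 0.13, adjusted p = 0.000172), with replicate 1 among its group. Lif itself (-0.05), Jak2 (0.46) and Tyk2 (-0.12) had no call.

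Some STAT3 targets were among the fallers. Socs3, the feedback inhibitor of the pathway, had 6.88, 6.61 and 6.74 at day 2 against 8.19, 7.77 and 8.19 at day 0. The 3 day 0 arrays were alike and none came near day 2 (difference -1.31 ± 0.14, 2.47-fold lower, adjusted p = 1.46e-05). Other Socs3 probe sets differed by -3.78 and -4.13, so the size of this fall depends on the probe set. Pim1 and Pim3, kinases related to Pim2, fell by 1.34 ± 0.21 and 1.54 ± 0.18, opposite to the rise of Pim2. Bcl3, an IκB-like coactivator, had 6.22, 6.31 and 6.31 at day 2 against 6.65, 8.09 and 8.88 at day 0. Socs1, Socs2 and Cish had differences of 0.12, -0.23 and -0.19 with no call. The promoter of Socs3 is shown because it is the pathway's direct feedback gene with the smallest p. The window runs from 250 bases before to 50 bases after the start in RefSeq (GRCm38.p6, chr11:117969317-117969616, minus strand), and capitals mark the STAT-type motif TTCNNNGAA, which reads the same on both strands apart from its N letters.
Socs3: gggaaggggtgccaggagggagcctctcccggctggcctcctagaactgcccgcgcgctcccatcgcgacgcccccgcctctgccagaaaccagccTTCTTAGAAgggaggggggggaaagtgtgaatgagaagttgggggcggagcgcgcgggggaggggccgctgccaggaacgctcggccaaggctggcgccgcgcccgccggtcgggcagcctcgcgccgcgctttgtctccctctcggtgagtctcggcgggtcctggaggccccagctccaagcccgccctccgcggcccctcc
This motif was found in 2 of 13 LIF list genes with a window, Socs3 and Cish, and in 9.55% of 27025 genes with a window. A match describes the letters only.

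**Figure D3:**
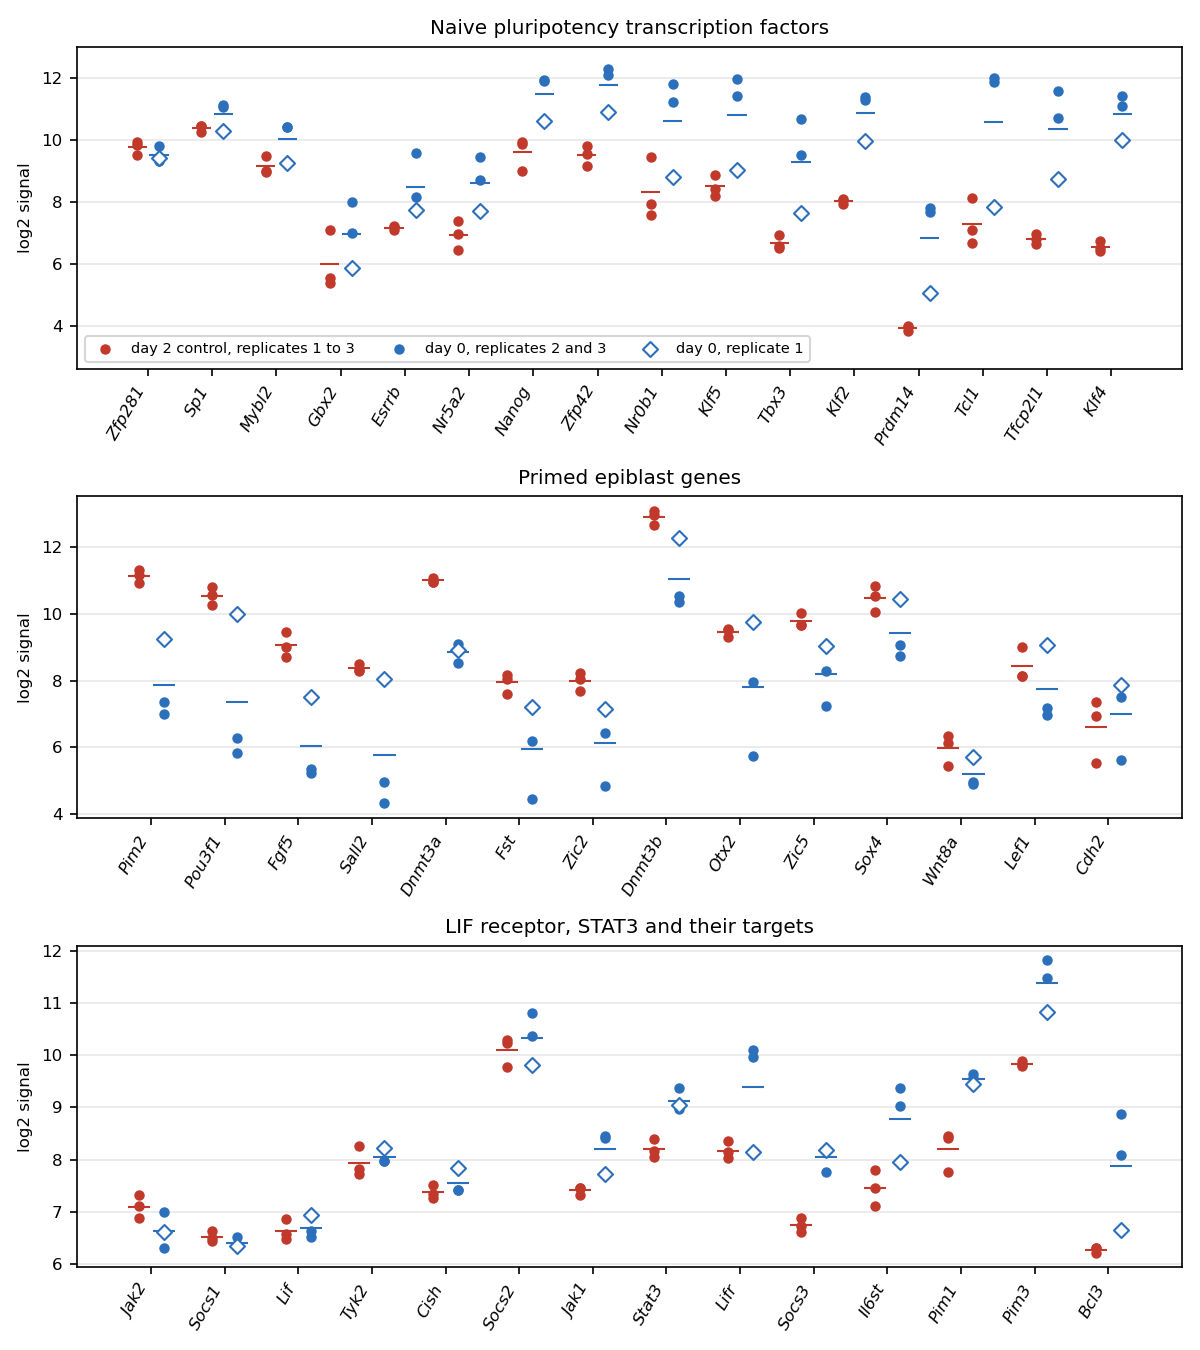
Log2 signal (y axis) by array for naive transcription factors (top), primed epiblast genes (middle) and the LIF list (bottom), with day 2 control in red left of day 0 in blue, group means as bars and day 0 replicate 1 as an open diamond. Klf4 lies at 6.40 to 6.72 at day 2, below all its day 0 arrays, while for Pou3f1 and Sall2 replicate 1 of day 0 lies near the day 2 arrays.

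Primed epiblast genes moved the other way: 10 of 14 rose and 0 fell, with a median of 1.86, and 13 rose without day 0 replicate 1. The fit of 6 arrays alone called 3 of the 14. Fgf5, the standard marker of this state, had 9.02, 9.46 and 8.72 at day 2 against 7.51, 5.21 and 5.35 at day 0 (difference 3.04 ± 0.42, 8.24-fold, adjusted p = 0.00013). Its day 0 replicate 1 lay between the groups, and a second probe set differed by 1.12. Pou3f1 (Oct6), a POU factor, had 10.26, 10.56 and 10.82 at day 2 against 9.99, 5.83 and 6.28 at day 0 (difference 3.18 ± 0.71, adjusted p = 0.00557). Sall2, a zinc finger factor, had 8.30, 8.50 and 8.33 at day 2 against 8.05, 4.31 and 4.96 at day 0. In both, replicate 1 fell just short of the day 2 arrays and the other day 0 arrays were over 3 log2 units below. Neither gene was called in the limma fit of 6 arrays alone (adjusted p = 0.136 for Pou3f1 and 0.156 for Sall2).

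Otx2, a driver of the primed state, had 9.31, 9.53 and 9.55 at day 2 against 9.76, 7.96 and 5.73 at day 0. Replicate 1 was the highest of the 6 arrays, and Otx2 was called without it (adjusted p = 0.00759) and not with it (adjusted p = 0.173). Lef1, a Wnt effector, and Wnt8a, a Wnt ligand, were likewise called without replicate 1 and not with it. Zic2 and Zic5, zinc finger factors of epiblast and neural plate, rose by 1.87 ± 0.37 and 1.59 ± 0.29. Fst (follistatin), an activin antagonist, rose by 2.00 ± 0.48 and Sox4 by 1.05 ± 0.29. Cdh2 (N-cadherin) had 6.93, 5.54 and 7.37 at day 2 against 7.86, 5.62 and 7.51 at day 0, with overlap.

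**Figure D4:**
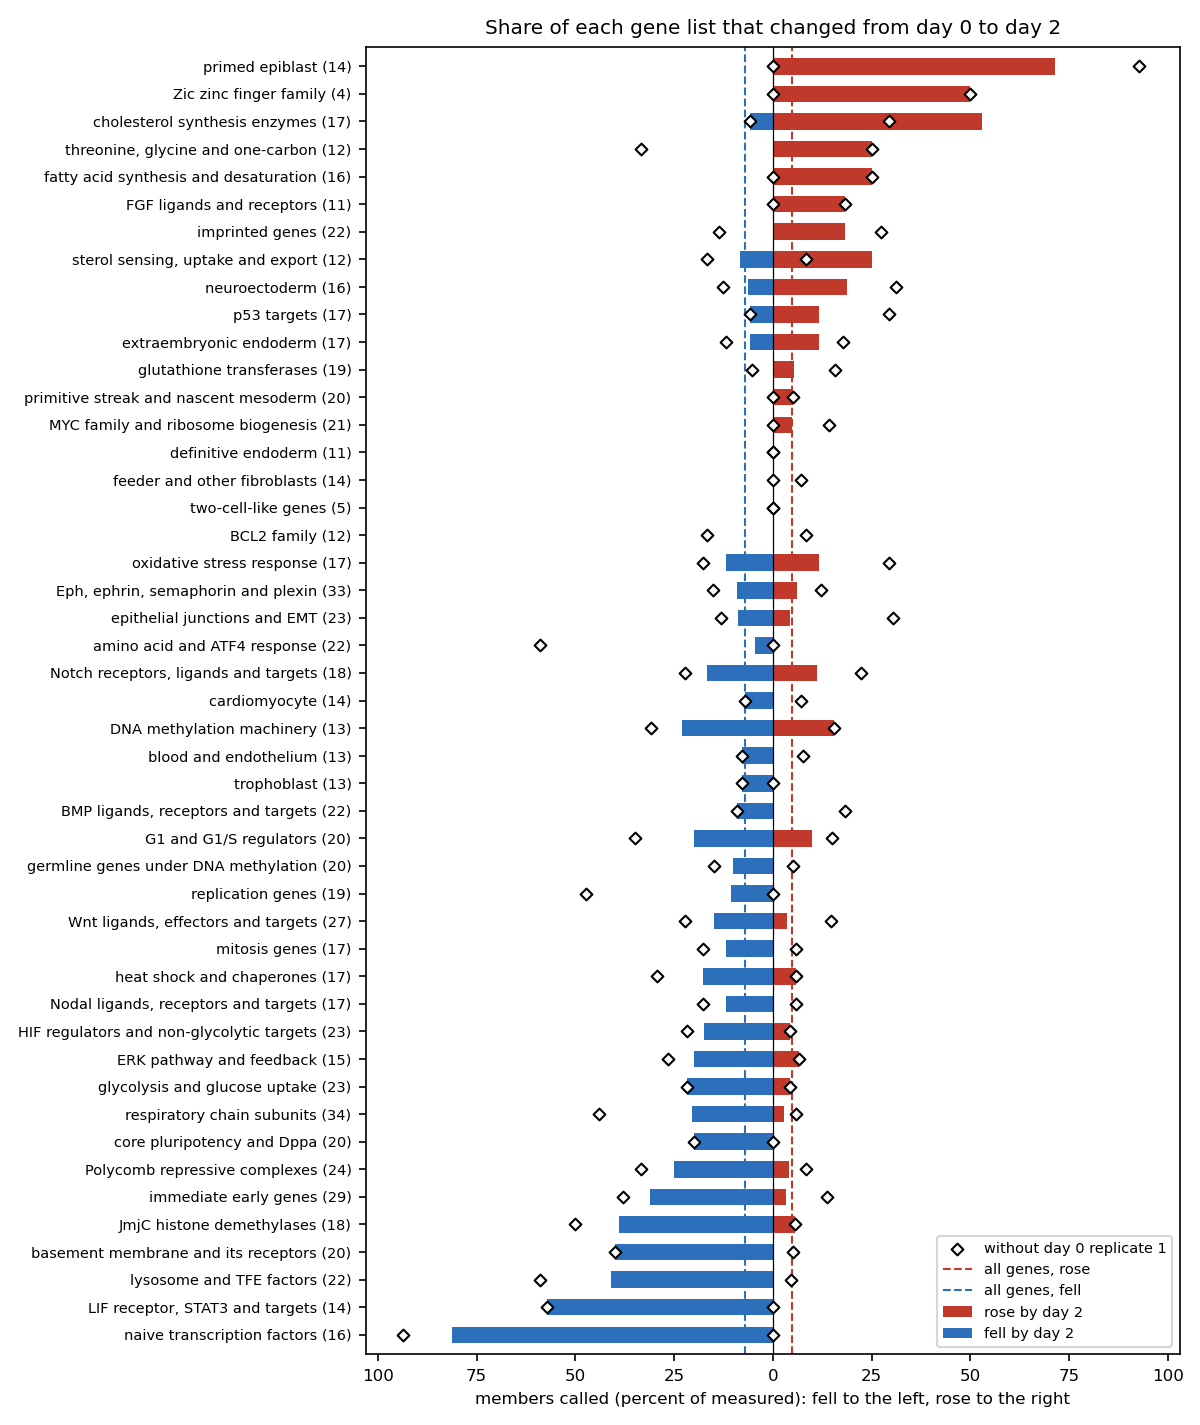
Percent of the measured members of each gene list (number in brackets) that fell (blue, to the left) or rose (red, to the right) by day 2, with the shares without day 0 replicate 1 as open diamonds and the shares of all genes, 6.99% fell and 4.80% rose, as dashed lines. Primed epiblast genes and naive transcription factors stand at the ends, and the diamonds lie far from the bars for the ATF4 response, replication and respiratory chain lists.

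A few signalling genes were called per pathway. The shares over all genes were 4.80% risen and 6.99% fallen with all arrays, and 7.73% and 12.7% without replicate 1. Of 11 FGF ligands and receptors, 2 rose and 0 fell, with or without replicate 1: besides Fgf5, Fgf15 had 8.38, 8.45 and 9.02 at day 2 against 8.07, 7.20 and 6.44 at day 0. Fgf4, the main autocrine ligand of stem cells, had a difference of -0.49 with no call. In the ERK list of 15, 1 rose and 3 fell (1 and 4 without replicate 1): the phosphatase gene Dusp4 rose by 0.84 ± 0.24, while the kinase Map2k1 (MEK1), the exchange factor Sos1 and the inhibitor Spred2 fell by 0.50, 0.72 and 0.69. Of 27 Wnt genes, 1 rose and 4 fell (4 and 6 without replicate 1). Fzd5, a Wnt receptor, had 6.92, 6.58 and 6.85 at day 2 against 7.78, 9.53 and 9.91 at day 0 (difference -2.29 ± 0.52). Porcn, which acylates Wnt ligands for secretion, fell by 1.36 ± 0.21, and Sfrp2, a secreted Wnt antagonist, rose by 1.20 ± 0.26.

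Few BMP and Nodal genes were called with all arrays: 2 of 22 and 2 of 17 fell, and 0 rose. Over all genes 6.99% fell and 4.80% rose, and 12.7% and 7.73% without replicate 1. The median difference was 0.12 in the BMP list and 0.03 in the Nodal list, against 0.03 over all genes. Bmp4, a ligand that supports self-renewal together with LIF, had 7.35, 7.19 and 7.49 at day 2 against 7.23, 10.31 and 11.00 at day 0. Its replicate 1 was as low as the day 2 arrays, and the difference was -2.17 ± 0.55 with it and -3.31 without it. Id1, the BMP target, had 8.81, 8.22 and 8.78 at day 2 against 10.72, 9.80 and 9.76 at day 0 (difference -1.49 ± 0.23, adjusted p = 0.000404), and here replicate 1 was the highest array. The other 20 BMP genes had no call with all arrays, each by the probe set used. For Id4 that probe set differed by -0.14, while others of similar mean level differed by -1.34 and -1.12. Without replicate 1, Id2, Id3, Bmpr2 and Bmpr1b rose and the same 2 genes fell. In the Nodal list of 17, Gdf3 and the proprotein convertase Pcsk6 (-0.49) fell, and Nodal itself, Lefty1 and Lefty2 had no call. Without replicate 1 the count was 1 rose and 3 fell.

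Of 18 Notch genes, 2 rose and 3 fell (4 and 4 without replicate 1). Among all genes 4.80% rose and 6.99% fell (7.73% and 12.7% without replicate 1). Notch1 had 7.79, 7.90 and 7.67 at day 2 against 8.86, 8.95 and 8.85 at day 0 (difference -1.10 ± 0.14, adjusted p = 5.68e-05). All 3 day 0 arrays agreed to within 0.1. Rbpj, the DNA-binding partner of all Notch receptors, fell by 1.42 ± 0.29 and Notch4 by 0.90 ± 0.26. Notch2 rose by 0.72 ± 0.21, and Dll3, a ligand-like inhibitor, had 8.50, 8.65 and 8.37 at day 2 against 7.97, 7.20 and 6.56 at day 0 (difference 1.26 ± 0.23). The target gene Hes1 (-0.73) had no call with all arrays.

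Of 13 DNA methylation genes, 2 rose and 3 fell (2 and 4 without replicate 1), against 4.80% and 6.99% of all genes (7.73% and 12.7% without replicate 1). Dnmt3a, a de novo methyltransferase, had 10.97, 10.97 and 11.07 at day 2 against 8.93, 9.09 and 8.54 at day 0 (difference 2.15 ± 0.24, 4.44-fold, adjusted p = 1.77e-05), with all 3 day 0 arrays alike. Its other probe sets differed by 0.21 to 2.09. Its partner Dnmt3b had 12.97, 13.09 and 12.68 at day 2 against 12.27, 10.54 and 10.36 at day 0 (difference 1.86 ± 0.30), with replicate 1 near day 2. Dnmt3l, their cofactor, had no call. Tet2, which oxidises methylated cytosine, had 6.85, 6.94 and 7.40 at day 2 against 8.65, 10.12 and 10.61 at day 0 (difference -2.73 ± 0.30, 6.63-fold lower, adjusted p = 1.79e-05). Tet1 fell by 1.49 ± 0.23 and the maintenance enzyme Dnmt1 by 0.72 ± 0.12. The maintenance cofactor Uhrf1 (-0.56) was called without replicate 1 and not with it, and Tet3 had no call.

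Histone modifiers fell more often than they rose, as did all genes (6.99% fell and 4.80% rose, and 12.7% and 7.73% without replicate 1). Of 24 Polycomb genes, 6 fell and 1 rose (8 and 2 without replicate 1). The fallers were the PRC2 subunits Ezh2 (-0.52), Suz12 (-0.66) and Eed (-0.84), its partners Mtf2 (-0.63) and Jarid2 (-0.82), and Phc1 of PRC1 (-0.67). Cbx2, a chromodomain subunit of PRC1, rose by 0.66 ± 0.18. Of 18 JmjC demethylase genes, 7 fell and 1 rose (9 and 1 without replicate 1). Kdm3a, an H3K9 demethylase that HIF also induces, had 9.54, 8.91 and 9.74 at day 2 against 10.61, 10.82 and 11.16 at day 0 (difference -1.47 ± 0.18, adjusted p = 4.07e-05), with no overlap. Kdm7a (-0.88), Kdm3b (-0.70), Kdm5b (-0.63), Kdm5c, Phf8 and Kdm2b were the others, and Jmjd6 rose by 0.49.

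Cholesterol synthesis enzymes rose in 9 of 17 cases and fell in 1, with a median of 0.77. Without day 0 replicate 1 the count was 5 rose and 1 fell, and the median 0.37. Replicate 1 was the lowest of all 6 arrays for most of these genes, beyond both groups rather than between them. Its mean over the list was 8.07, against 9.01 and 8.62 in day 0 replicates 2 and 3 and 9.19, 9.24 and 9.21 at day 2. The genes that rose either way were Idi1, Hmgcs1, Sc5d, Lss and Dhcr7. Idi1, isopentenyl diphosphate isomerase, had 10.98, 10.83 and 11.24 at day 2 against 9.66, 9.62 and 9.27 at day 0 (difference 1.50 ± 0.17, 2.83-fold, adjusted p = 1.78e-05). Hmgcs1, the synthase that feeds the pathway, had 11.99, 12.05 and 11.57 at day 2 against 10.20, 11.12 and 10.32 at day 0 (difference 1.32 ± 0.18). Sc5d, a late desaturase, had 7.99, 7.56 and 8.37 at day 2 against 6.58, 6.81 and 6.72 at day 0 (difference 1.27 ± 0.17). Other Sc5d probe sets differed by 0.27 and 0.10. The groups were apart for all 3 genes and day 0 replicate 1 was within 1 unit of its group.

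Sqle, Fdft1, Mvd and Mvk rose with all arrays and had no call without replicate 1. Msmo1 had 9.75, 9.56 and 10.22 at day 2 against 7.50, 9.93 and 9.44 at day 0 and was not called either way. Ebp, a sterol isomerase, fell by 0.62 ± 0.20. Of 12 sterol regulators, 3 rose and 1 fell (1 and 2 without replicate 1), against 4.80% and 6.99% of all genes (7.73% and 12.7% without replicate 1). Insig1 (1.05), which holds back the factor SREBP, Stard4 (0.80), a sterol carrier, and the lipoprotein receptor Lrp8 (0.77) rose, of which Stard4 alone held without replicate 1. Abca1, the exporter of cholesterol, had 6.08, 6.35 and 6.53 at day 2 against 7.68, 9.88 and 9.59 at day 0 (difference -2.73 ± 0.35, 6.63-fold lower). Its other probe sets, both dimmer, differed by -0.12 and -0.04. Srebf1 and Srebf2, which encode the SREBP factors, had no call.

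**Figure D5:**
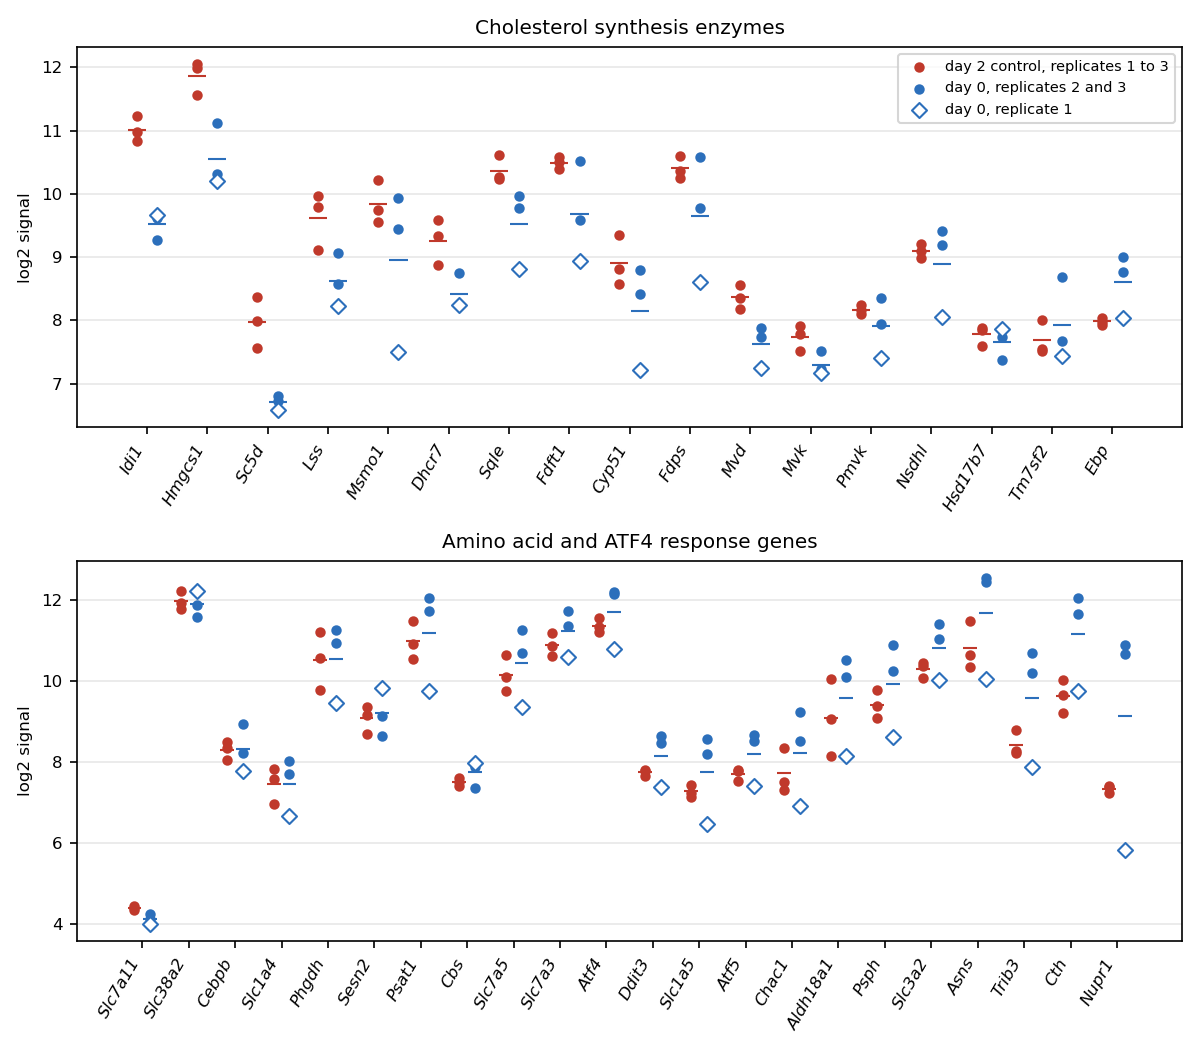
Log2 signal (y axis) by array of cholesterol synthesis enzymes (top) and amino acid and ATF4 response genes (bottom), with day 2 control in red left of day 0 in blue, group means as bars and day 0 replicate 1 as an open diamond. In most genes of both lists replicate 1 is the lowest array, for example 7.50 for Msmo1 and 5.84 for Nupr1.

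Promoters of the 3 cholesterol genes with the largest rise are shown, since these genes moved together. The windows span 250 bases before to 50 after the start in RefSeq (GRCm38.p6), and capitals mark CCAAT on either strand (ATTGG on the strand shown). CCAAT is the box that the factor NF-Y binds. Idi1 lies at chr13:8885356-8885655 (plus strand), Hmgcs1 at chr13:119690101-119690400 (plus strand) and Sc5d at chr9:42264251-42264550 (minus strand).
Idi1: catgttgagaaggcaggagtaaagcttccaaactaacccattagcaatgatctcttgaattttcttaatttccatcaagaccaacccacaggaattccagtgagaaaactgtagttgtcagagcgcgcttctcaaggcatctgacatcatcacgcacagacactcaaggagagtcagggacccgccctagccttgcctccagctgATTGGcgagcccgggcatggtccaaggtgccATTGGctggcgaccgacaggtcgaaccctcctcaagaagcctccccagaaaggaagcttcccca
Hmgcs1: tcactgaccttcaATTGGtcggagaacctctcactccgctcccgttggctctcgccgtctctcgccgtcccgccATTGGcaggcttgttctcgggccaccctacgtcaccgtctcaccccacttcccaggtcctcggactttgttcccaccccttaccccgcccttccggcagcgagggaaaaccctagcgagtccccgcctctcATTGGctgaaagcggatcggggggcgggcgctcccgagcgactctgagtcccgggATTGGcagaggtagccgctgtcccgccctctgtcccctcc
Sc5d: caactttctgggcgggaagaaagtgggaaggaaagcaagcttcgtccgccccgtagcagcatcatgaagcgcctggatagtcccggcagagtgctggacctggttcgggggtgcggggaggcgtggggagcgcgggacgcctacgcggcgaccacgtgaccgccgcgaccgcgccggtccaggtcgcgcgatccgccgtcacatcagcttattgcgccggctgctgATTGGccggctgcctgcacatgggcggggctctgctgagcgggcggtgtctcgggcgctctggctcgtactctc
The box occurred 2 times in the Idi1 window, 4 times in that of Hmgcs1 and 1 time in that of Sc5d. It was present in 14 of 14 cholesterol enzyme genes with a window, called or not, and in 42% of the 14453 tested genes with one. The motif CACCCCAC, a sterol regulatory element sought on both strands, was found in 1 of the 14, Hmgcs1, against 3.76% of tested genes. Matches do not show binding.

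Of 16 fatty acid genes 4 rose and 0 fell, with or without replicate 1. Acsl4, which activates arachidonate and similar fatty acids, had 10.17, 10.45 and 10.30 at day 2 against 8.71, 8.27 and 7.74 at day 0 (difference 2.07 ± 0.28, 4.19-fold, adjusted p = 0.00012). Fads2, a desaturase, rose by 1.29 ± 0.19, Fasn, the fatty acid synthase, by 0.87 ± 0.16, and Acsl3 by 0.62 ± 0.19. No array of one group reached the other in these 4 genes.

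Glycolysis genes fell in 5 of 23 cases and rose in 1, unchanged in number without replicate 1. Slc2a3 (GLUT3), the main glucose transporter of early embryos, had 12.05, 11.93 and 11.26 at day 2 against 13.65, 13.63 and 13.22 at day 0 (difference -1.75 ± 0.23, adjusted p = 7.8e-05), a clean separation. Pfkp, platelet-type phosphofructokinase, had 8.69, 8.61 and 9.25 at day 2 against 9.89, 12.08 and 11.61 at day 0 (difference -2.34 ± 0.40). Hexokinases Hk2 (-1.17) and Hk1 (-0.71) and the aldolase Aldoc (-1.23) fell, and the monocarboxylate transporter Slc16a1 rose by 0.85 ± 0.20. Of 23 HIF regulators and targets, 1 rose and 4 fell (1 and 5 without replicate 1), against 4.80% and 6.99% of all genes (7.73% and 12.7% without replicate 1). Hif1a, which encodes the hypoxia-inducible factor, rose by 0.64 ± 0.12, whereas its targets Ero1a (-1.06), P4ha1 (-1.06) and Bnip3 (-1.21) fell, Bnip3 without a call once replicate 1 was left out. Probe sets disagreed for Ndrg1: the one used differed by -0.15, one of about the same mean level by -1.89, and dimmer ones by -1.18 to -2.58. Of 34 respiratory chain genes, 7 fell and 1 rose. Without replicate 1, 15 fell and 2 rose, and with all arrays the differences spanned -0.48 to 0.40.

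Amino acid supply and ATF4 response genes were called in 1 of 22 cases with all arrays and in 13, all lower at day 2, without replicate 1 (medians -0.38 and -0.85). Replicate 1 had a mean of 8.50 over the list, against 9.84 and 10.04 in the other day 0 arrays and 8.93, 9.25 and 8.83 at day 2. Nupr1, a stress-induced chromatin protein, had 7.25, 7.41 and 7.38 at day 2 against 5.84, 10.68 and 10.90 at day 0, so day 0 held both the lowest and the highest arrays. Asns (asparagine synthetase) had 10.65, 11.47 and 10.34 at day 2 against 10.05, 12.44 and 12.54 at day 0. Trib3, a pseudokinase induced by ATF4, had 8.22, 8.79 and 8.27 at day 2 against 7.88, 10.21 and 10.69 at day 0. In each the call rested on whether replicate 1 was included. Cth, which makes cysteine, was the gene called with all arrays (-1.52 ± 0.46).

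Immediate early genes, which answer stimuli within minutes, fell in 9 of 29 cases and rose in 1, with a median of -0.47. Without replicate 1, 11 fell and 4 rose, with a median of -0.27. Fos had 7.02, 6.93 and 7.17 at day 2 against 10.57, 9.51 and 8.93 at day 0 (difference -2.63 ± 0.31, 6.19-fold lower, adjusted p = 3.48e-05). Egr1 had 7.83, 8.07 and 8.36 at day 2 against 10.97, 10.60 and 9.52 at day 0 (difference -2.28 ± 0.33). For both, replicate 1 was the array farthest from day 2, opposite to its place for naive and primed genes. The YAP target Ccn2 (CTGF) had 8.67, 8.19 and 8.71 at day 2 against 11.46, 9.16 and 9.45 at day 0, so its difference of -1.50 ± 0.39 came to -0.78 without replicate 1. Jun had 6.84, 5.99 and 5.89 at day 2 against 8.51, 6.26 and 6.18 at day 0 and was not called. Ier5, a regulator of heat shock factor, was the riser, with 7.81, 7.60 and 7.74 at day 2 against 6.49, 6.04 and 5.62 at day 0. Its other probe sets, both dimmer, differed by 0.05 and 0.10. Of 17 chaperone genes, 1 rose and 3 fell (1 and 5 without replicate 1), against 4.80% and 6.99% of all genes (7.73% and 12.7% without replicate 1). Hspb1 (-1.30) and Hspa9 (-0.56) fell, Cryab fell to background (at least 1.77-fold lower), and the ER chaperone Hspa5 rose by 0.44.

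Lysosomal genes fell in 9 of 22 cases and rose in 0, with a median of -0.48 (13 fell and 1 rose without replicate 1). Mitf, a factor of the TFE family that drives such genes, had 6.46, 6.10 and 6.70 at day 2 against 6.36, 9.14 and 9.49 at day 0, with replicate 1 among the day 2 arrays (difference -1.91 ± 0.48, adjusted p = 0.0119). Its relative Tfeb had 7.83, 7.79 and 7.62 at day 2 against 8.49, 8.19 and 8.25 at day 0, with no overlap (difference -0.56 ± 0.12). Tfe3, the family member known to hold stem cells in the naive state, had a difference of 0.20 with no call. The enzymes Hexa (-1.50), Ctsa (-1.14) and Ctsd (-0.60), the growth factor precursor Grn (-0.88), the calcium channel Mcoln1 (-0.70), the proton pump subunit Atp6v0d1 (-0.77) and Lamp1 (-0.54) fell.

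Basement membrane genes fell in 8 of 20 cases and rose in 0, with a median of -0.45 (8 and 1 without replicate 1). Fn1 (fibronectin) had 10.07, 9.74 and 10.51 at day 2 against 11.60, 12.58 and 12.69 at day 0 (difference -2.18 ± 0.25, 4.54-fold lower, adjusted p = 2.86e-05). Agrn (agrin) had 8.61, 8.51 and 8.29 at day 2 against 9.79, 9.77 and 9.83 at day 0 (difference -1.33 ± 0.12, adjusted p = 1.33e-06), and Sparc had 9.07, 8.93 and 9.38 at day 2 against 10.23, 10.45 and 10.32 at day 0. In Agrn and Sparc all day 0 arrays agreed. Nid1 (nidogen 1) fell by 2.81 ± 0.44, Lama1 (laminin α1) by 1.92 ± 0.41 and Nid2 by 1.21 ± 0.24. Col4a1 (-0.38), a chain of collagen IV, and the integrin genes Itga6 (-0.56) and Itgb1 (-0.08) had no call with all arrays.

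Epithelial and mesenchymal genes were mostly uncalled with all arrays: of 23, 1 rose (Krt18, 1.44 ± 0.27) and 2 fell (Cldn4, -1.29, and Vim, -0.93). Without replicate 1, 7 rose and 3 fell. The shares over all genes were 4.80% risen and 6.99% fallen (7.73% and 12.7% without replicate 1). Prom1, for example, had 8.85, 8.75 and 8.61 at day 2 against 9.18, 7.16 and 6.44 at day 0, so replicate 1 exceeded every day 2 array. Cdh1 (E-cadherin) and Epcam had no call either way.

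Cell cycle lists had few calls with all arrays, and the replication and mitosis lists had shares near the 11.8% called over all genes. Over all genes 4.80% rose and 6.99% fell (7.73% and 12.7% without replicate 1). Of 20 G1 regulators, 2 rose and 4 fell (3 and 7 without replicate 1). Cdkn2b (0.80), an inhibitor of CDK4, and Ccne1 (0.55), cyclin E1, rose, while Rbl1 (-1.09), Cdk6 (-1.04) and Ccnd3 (-1.13), cyclin D3, fell. Rbl2 fell to a mean of 4.93 at day 2, under the background level, and was at least 1.8-fold lower than at day 0. Of 19 replication genes 2 fell with all arrays and 9 without replicate 1, with differences of -0.51 to 0.35. Of 17 mitosis genes, Mki67 (-0.56) and Ccnb2 (-0.77) fell, and without replicate 1 the count was 1 rose and 3 fell.

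Counts for markers of other cells follow, beside shares over all genes of 4.80% risen and 6.99% fallen (7.73% and 12.7% without replicate 1). The primitive streak list had 1 riser of 20, Cdx4, which read 3.63, 3.70 and 3.70 at day 2 against 3.34, 3.18 and 3.34 at day 0, at background. It was also the one call without replicate 1. Eomes (1.02), Mixl1 (0.66), Mesp1 (-0.41) and Fgf8 (1.07) had no call, and a second Eomes probe set differed by 1.29. In 5 of the 20 genes all day 2 arrays lay above day 0, against 10.5% of all genes. In 1 all lay below, against 8.87% of all genes. The list mean was 5.87 to 6.07 at day 2 and 5.70 to 5.83 at day 0. Definitive endoderm and fibroblast lists had 0 calls of 11 and of 14 in limma with all arrays, and 0 and 1 genes at an unadjusted p under 0.05. Without replicate 1, 1 fibroblast gene rose. In the blood and endothelium list of 13, the adhesion gene Pecam1, which stem cells also express, fell by 0.82 ± 0.22 (1 rose and 1 fell without replicate 1). In the extraembryonic endoderm list of 17, the endocytic genes Dab2 (2.04 ± 0.30) and Cubn (1.14 ± 0.23) rose and Lama1 fell (3 and 2 without replicate 1). Other Dab2 probe sets, all dimmer, differed by 0.25 to 0.64. Gata4, Gata6 and Sox17, which define that lineage, had no call, and the list mean was 6.45 to 6.53 at day 2 and 6.34 to 6.44 at day 0. For Ttr the probe set used differed by 0.32, and dimmer ones by 1.15, 1.09 and 1.21. Day 2 arrays lay above all day 0 arrays in 4 of these 17 genes, against 10.5% of all genes, and below them in 1, against 8.87%. Neuroectoderm had 3 risers and 1 faller of 16 (5 and 2 without replicate 1). Sox3, a SoxB1 factor, had 8.23, 8.71 and 8.87 at day 2 against 7.60, 6.88 and 7.38 at day 0 (difference 1.32 ± 0.28), Sox11 rose by 1.24 ± 0.22 and Pax3 by 0.51 ± 0.15. The adhesion gene Ncam1 fell by 0.68, and Sox1 had no call. The trophoblast and germline factor Tfap2c fell by 2.85 ± 0.68 while Cdx2, Elf5 and Gata3 had no call, and it was the one call of 13 with or without replicate 1. In the cardiomyocyte list of 14, Ryr2 (-0.84) fell, and Myh6 had 6.36, 6.47 and 6.15 at day 2 against 6.02, 4.36 and 4.13 at day 0 (adjusted p = 0.0775), where the lower values are at background. Myh6 rose without replicate 1.

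Aggregates of day 2 with 100 µM ascorbic acid can be set against the same day 0 arrays. Because both comparisons share day 0, their likeness is no independent evidence, and values are only placed side by side. With ascorbic acid, 7.42% of genes rose and 6.27% fell. Klf4 averaged 5.85 in treated aggregates and 6.54 in day 2 control aggregates, Pim2 10.98 and 11.14, and Fgf5 9.09 and 9.07. Dpys had 7.29, 7.35 and 7.97 in treated aggregates against 5.72, 6.01 and 6.62 in day 2 control aggregates. Mymx, a myoblast fusion peptide gene, averaged 8.10 in treated and 6.44 in day 2 control aggregates. The difference from day 0 was -1.52 in treated and -2.94 in control aggregates for Dpys, and -1.50 (adjusted p = 0.0854) and -3.16 for Mymx.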

How the data were processed

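Per the submitters' processing notes, the authors made log2 signals with RMA, a method that removes background, equalises the arrays' distributions and combines probes (version not stated in the sources used here). These deposited log2 values (45101 probe sets, 2.51 to 14.51, array medians 6.05 to 6.19) were used as given. Of the probe sets, 34958 carried 1 gene symbol, 932 several and 9211 none. For 18194 genes, the probe set of highest mean stood for the gene. Differences, standard errors and p-values came from limma 3.58.1 in R 4.3.3 (an intensity trend in eBayes) over all 21 arrays in 7 group means, adjusted by Benjamini-Hochberg over all genes, with a threshold of 0.05. Members and gene lists (47, with 843 measured entries) were chosen with earlier results of these data known. Named genes are list members and the 20 largest called rises and falls without overlap between groups, clone names left out. Levels under 5 were not taken as above background. Arrays give no read depth. No pair of arrays held identical values. Alternatives were other normalizations, filters, weights, blocks and leaving out each array.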

Additional observations from a re-analysis of the deposited data

How the results depend on the processing

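The number of genes called depended on the arrays and the estimate of spread more than on normalization. Against 2144 calls (873 rose, 1271 fell), a fit of the 6 arrays alone gave 198 (78 and 120), array weights 5130 (2467 and 2663), and adding a minimum change of 1 gave 517 (153 and 364). Leaving out 1 array gave 1122 to 3713 calls, with 471 to 1407 rising and 651 to 2306 falling, the highest without day 0 replicate 1. Replicate numbers were not treated as pairs, since the labels do not state that they mark a shared culture. Same-numbered arrays had deviations correlated at 0.094, -0.071 and 0.158, and arrays of unlike number at -0.178 to 0.139. With 3 arrays a group, these values cannot decide whether the arrays were paired. A replicate block gave 2616 calls with 21 arrays and 405 (151 and 254) with 6 arrays. Renewed quantile normalization gave 2474, median centring 2007, no intensity trend 2159, the mean of all probe sets 1906, a random block for treated and control pairs 2152, and a minimum mean level of 6 gave 2104 of 12458 genes. Of 205 called genes among the members, 47 were called in the 6 arrays alone, 196 when day 0 replicate 1 was left out and 146 when its replicate 2 was. The sign of Btg2 reversed, at -0.08 with all arrays and -0.47 to 0.60 with 1 array left out, the highest without day 0 replicate 1. The cause was not tested.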

Other observations

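The counts of this section stand beside shares over all genes of 4.80% risen and 6.99% fallen. Without day 0 replicate 1 these shares were 7.73% and 12.7%. Guidance receptors and their ligands rose in 2 of 33 cases and fell in 3 (4 and 5 without day 0 replicate 1). The ephrin gene Efnb2 had 8.98, 9.12 and 9.16 at day 2 against 8.75, 5.97 and 6.10 at day 0, with replicate 1 of day 0 next to the day 2 arrays (difference 2.15 ± 0.44, limma adjusted p = 0.00345). Another of its probe sets differed by 0.03. Sema6d rose by 0.67 ± 0.21, while the receptors Nrp2 and Epha4 fell by 1.75 ± 0.35 and 1.29 ± 0.33 and the semaphorin Sema4b by 1.11 ± 0.14. Of 17 oxidative stress genes, 2 rose and 2 fell, and 5 rose and 3 fell without day 0 replicate 1. Gclm, the modifier subunit of glutathione synthesis, had 11.00, 10.78 and 11.07 at day 2 against 9.39, 10.15 and 9.78 at day 0. Txnrd1 (thioredoxin reductase) rose by 0.55 ± 0.17. Gpx4, the lipid peroxide reductase, had 10.62, 10.37 and 11.80 at day 2 against 12.34, 12.04 and 12.22 at day 0, and mitochondrial Sod2 fell by 0.89 ± 0.18. The groups did not overlap for Gclm or Gpx4.

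Of 22 imprinted genes, 4 rose and 0 fell with all arrays, whereas 6 rose and 3 (Igf2r, Slc38a4 and Phlda2) fell without day 0 replicate 1. For these lists too, the shares over all genes were 4.80% risen and 6.99% fallen (7.73% and 12.7% without day 0 replicate 1). Cdkn1c, a cell cycle inhibitor, had 9.04, 8.77 and 9.83 at day 2 against 7.89, 8.02 and 8.24 at day 0, and Nnat, Magel2 and Snrpn rose by 0.96, 0.76 and 0.57. Germline genes under DNA methylation fell in 2 of 20 cases, Stag3 (-1.77 ± 0.31) and Piwil2 (-1.23 ± 0.30), and without day 0 replicate 1 the count was 3 fell and 1 rose. Of 17 p53 targets, 2 rose and 1 fell, and without day 0 replicate 1 the count was 5 and 1. Plk2, for example, had 9.60, 8.81 and 9.01 at day 2 against 10.42, 7.64 and 7.87 at day 0, so replicate 1 was the highest array. Of the one-carbon list of 12, Ahcy (0.61), Gcsh (0.48) and Tyms (0.46) rose and 0 fell, with a median of -0.12. Tyms was close to background, with a mean of 5.65 at day 2, and its dimmer probe sets differed by 0.00, 0.15 and -0.24. Without day 0 replicate 1, 3 rose and 4 (Gldc, Shmt2, Mthfd2 and Mthfd1l) fell, with a median of -0.16. The glutathione transferase Gstt2 rose by 1.02 ± 0.19 as the one call of 19 (3 rose and 1 fell without day 0 replicate 1). Of 21 MYC family and ribosome biogenesis genes, Nolc1 rose by 0.62 ± 0.18, and 3 rose without day 0 replicate 1. The 12 BCL2 family genes and the 5 two-cell genes measured had 0 calls in limma with all arrays and 1 and 2 genes at an unadjusted p under 0.05. Without day 0 replicate 1, 1 BCL2 family gene rose and 2 fell, and 0 two-cell genes were called.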
